A study of Homo sapiens with 10 samples.

Results

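The 10 genes described here encode the enzymes that carry long-chain fatty acids into the mitochondrion and oxidize them there (CPT1A, CPT2, ACADVL, ACADM, ACADS, HADHA, HADHB and ETFDH), together with the transcription factor PPARA and the coactivator PPARGC1A. They were found as the rows of the deposited read count table that carry these symbols. All 10 genes had a row among 22626, and all 10 passed the filter on low counts of edgeR, with 14936 rows left to test. The cells were ARPE-19, an established human retinal pigment epithelial (RPE) cell line, grown for 48 h either in control medium (D-glucose at 5.5 mM with mannitol at 32 mM, n = 5 libraries) or in high glucose medium (HG, D-glucose at 37.5 mM, n = 5 libraries). Mannitol is a sugar alcohol that balances the osmotic load of the added glucose. The comparison asked how the transcriptome of these cells differs after high glucose. Control libraries are called by their replicate number and high glucose libraries by the deposited column, HG_1 to HG_5. Nothing in the labels says that the libraries came from separate cultures, so p-values measure the spread between these libraries.

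Fatty acid oxidation starts when an acyl-CoA is passed to carnitine at the outer mitochondrial membrane and back to coenzyme A inside. Each turn of the β-oxidation cycle then removes a pair of carbons as acetyl-CoA through dehydrogenation, hydration, a further dehydrogenation and thiolytic cleavage, with chain-length-specific enzymes at the first step. The RPE is known for burning fatty acids from the photoreceptor outer segments it engulfs, which spares glucose for the photoreceptors and yields ketone bodies.

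After 48 h in high glucose, PPARGC1A mRNA was 1.97-fold the control level, and the mRNAs of HADHB and CPT1A were 18.8% and 16.4% higher. These 3 of the 10 genes passed an adjusted p of 0.05 in edgeR's quasi-likelihood test, and all 3 were higher in high glucose. The background was large: the same test called 15.4% of the 14936 rows in either direction, 7.62% higher and 7.8% lower. Levels are given as counts scaled to library size and composition (normalized CPM). In the same 3 genes every high glucose library lay above every control library, which held in one direction or the other for 13.6% of all rows. Of the 8 enzyme genes, 7 had a log2 fold change above 0 (high glucose minus control), against 50.2% of all tested rows. Over the 10 genes the median log2 fold change was 0.20 against 0.00 over all tested rows. ACADVL and PPARA had values below 0, and neither passed the test. In RNA from whole cultures, fewer cells of a kind and less RNA per cell cannot be told apart.

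**Figure D1:**
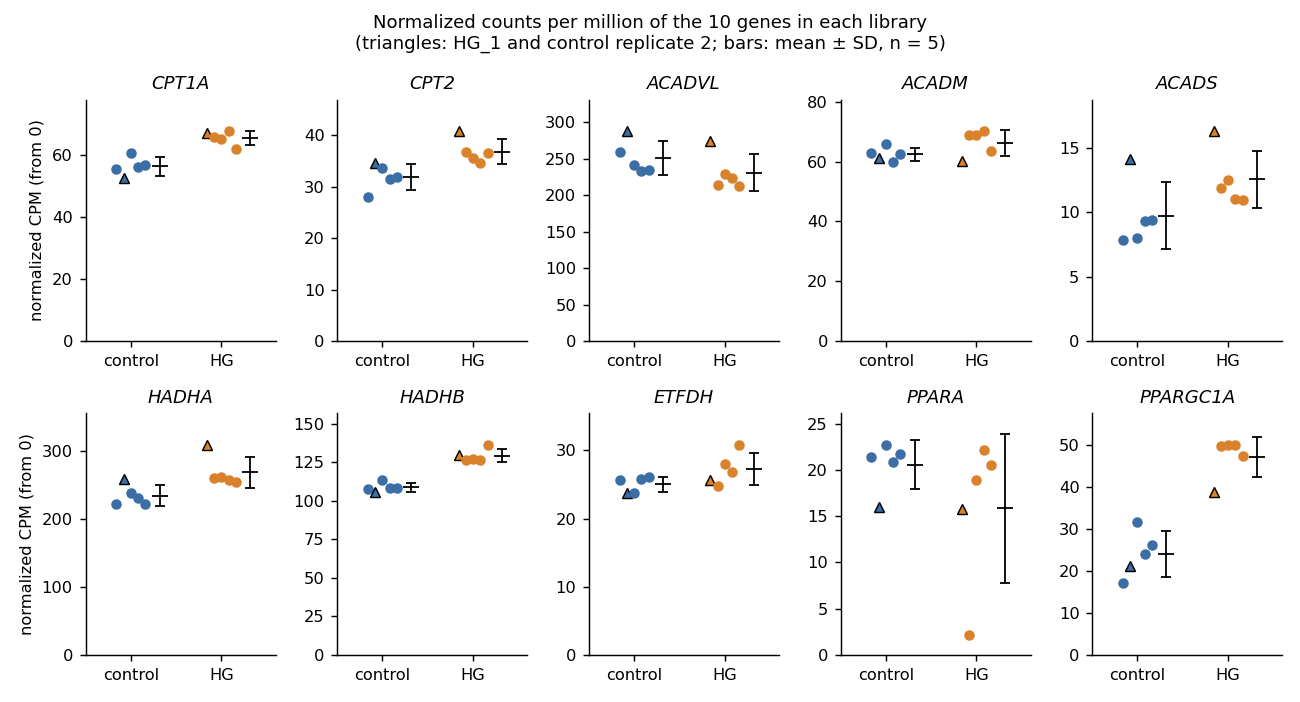
Normalized CPM (y axis from 0) of each of the 10 genes in the 5 control (blue) and 5 high glucose (orange) libraries, with mean ± SD beside them. The groups do not overlap for CPT1A, HADHB and PPARGC1A, HG_1 and control replicate 2 (triangles) stand high for ACADVL, ACADS and HADHA, and 1 high glucose library, HG_2, falls to 2.11 CPM for PPARA.

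Some facts of the whole series touch these values. Libraries held between 32448991 and 45864176 counts, so that 3 counts correspond to 0.0654 to 0.0925 CPM, and the lowest count of any of the 10 genes was 87, for PPARA in HG_2, with at least 258 in all other cases. HG_1 and control replicate 2 stand apart from the other 8 libraries by a trend with GC content, with slopes of 0.188 and 0.17 log2 units per 10 percentage points of GC against −0.0916 to −0.00519, and their values are given beside each gene. TXNIP, a gene that responds to glucose and checks the labels, had 27 to 55 counts in control and 177 to 581 in high glucose libraries (log2 fold change 3.15, adjusted p = 5.55e-05). Of 13 RPE markers 9 were tested and 3 were lower (KRT8, KRT18 and PMEL), the summed level of the list was 2833 to 3591 CPM in control and 1796 to 2470 CPM in high glucose, BEST1 within it ran from 24 to 18223 counts among controls, RPE65 and TYR did not pass the filter on low counts, and TTR and RGR had 0 counts in every library. KRT8 and KRT18 made up most of the RPE sum, with control means of 1864 and 1060 CPM and high glucose means of 1211 and 659 CPM. Of the markers of other cells, GNAT1 and CRX of photoreceptors, CDH5 of endothelium, AIF1 and CD3E of immune cells and THY1 of fibroblasts had 0 counts in every library. The summed fibroblast list was 5777 to 6271 CPM in control and 5939 to 6935 CPM in high glucose, the photoreceptor list 11.9 to 17 and 14.3 to 19.7 CPM, the endothelial list 2.93 to 5.05 and 2.13 to 3.13 CPM, and the immune list 54.5 to 81.3 and 102 to 144 CPM. Of the tested genes of these lists, 3 of 4 fibroblast markers (COL1A1, PDGFRB and ACTA2) and 1 of 2 endothelial markers were lower, VIM made up most of the fibroblast sum with a mean of 5653 CPM in control and 6107 CPM in high glucose, the 1 immune marker tested (CD68) was higher, and the 1 photoreceptor marker tested was not called. The part of these marker differences in the results was not tested.

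The genes spanned a wide range of levels. In FPKM, which the authors scaled by transcript length and library size and which allows genes to be compared with each other, ACADVL had the highest level with 109 ± 7.47 in control and 99.8 ± 9.82 in high glucose (SD, n = 5). HADHA followed with 73.5 ± 3.56 and 85.2 ± 4.84 FPKM, and HADHB with 49.9 ± 2.41 and 59.9 ± 2.34 FPKM. Below them came ACADM (26.1 ± 1.23 and 28.3 ± 2.59), CPT2 (10.9 ± 0.819 and 12.7 ± 0.472), CPT1A (9.99 ± 0.617 and 11.7 ± 0.422), ETFDH (6.98 ± 0.42 and 7.77 ± 0.594), ACADS (4.83 ± 1.2 and 6.27 ± 0.947), PPARGC1A (3.65 ± 0.899 and 7.29 ± 0.964) and PPARA (1.98 ± 0.308 and 1.85 ± 0.29 FPKM). This order is that of control, and in high glucose the mean of PPARGC1A stood above that of ACADS. Neighbours in this order overlapped between ETFDH and ACADS and between ACADS and PPARGC1A in both groups, between CPT2 and CPT1A in control only, and between ACADVL and HADHA in high glucose only. The other neighbours did not overlap in either group. ACADS reached the range of ETFDH only in control replicate 2 (6.87 FPKM) and HG_1 (7.85 FPKM). HADHA reached that of ACADVL only in HG_1 (93.3 FPKM).

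CPT1A and CPT2 encode the carnitine palmitoyltransferases of the outer and inner mitochondrial membrane. CPT1A (ENSG00000110090, chr11:68754620-68844410, minus strand, GRCh38) catalyses the committed and malonyl-CoA-sensitive step of the pathway. Its level was 55.4, 52.5, 60.8, 56.3 and 56.9 CPM in control replicates 1 to 5 and 67.3, 65.8, 65.4, 67.8 and 62 CPM in HG_1 to HG_5. The lowest high glucose library was above the highest control library, with means of 56.4 ± 2.97 and 65.6 ± 2.29 CPM (SD, n = 5). The log2 fold change was 0.22 with a standard error of 0.0493 (edgeR adjusted p = 0.0127), and the gene was called under every alternative tried, with 0.19 to 0.25.

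CPT2 (ENSG00000157184, chr1:53196429-53214197, plus strand) rebuilds acyl-CoA inside the mitochondrion. Control libraries gave 28, 34.7, 33.6, 31.5 and 31.8 CPM, and high glucose libraries 40.8, 36.6, 35.5, 34.6 and 36.6 CPM. All but HG_4, which lay just under control replicate 2, were above all controls. With a log2 fold change of 0.21 ± 0.0688 (SE) and an edgeR adjusted p of 0.0689, CPT2 did not pass. It passed with an adjusted p of 0.0106 once each library's trend with GC content and length was removed. Of the fits with 1 library left out, only that without control replicate 2 passed (adjusted p = 0.0394). The adjusted p was 0.0881 without HG_1 and 0.138 without control replicate 1 (log2 fold change 0.16). An antisense gene covers 18% of the 100-base windows of the CPT2 transcript, and no source used here gives the strand setting of the counting.

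Within a library, the log2 ratio of CPT1A to CPT2 in normalized CPM was 0.82 ± 0.139 in control and 0.84 ± 0.0984 in high glucose (SD, n = 5). The difference of 0.01 was smaller than the spread between libraries (exact permutation test, two-sided, p = 0.817).

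The 3 acyl-CoA dehydrogenases open the β-oxidation cycle for very long, medium and short chains, and none of them passed in edgeR with all libraries. ACADVL (ENSG00000072778, chr17:7217125-7225273, plus strand) acts on very long chains at the inner membrane. Its control values were 259, 288, 242, 233 and 234 CPM, and its high glucose values were 274, 215, 228, 223 and 213 CPM. In HG_2 to HG_5 ACADVL lay below every control library, while HG_1 lay above all controls except replicate 2. The log2 fold change was −0.12 ± 0.0822 (SE, edgeR adjusted p = 0.383). With the GC and length trend removed, the groups separated, at 242 to 280.2 CPM in control and 230.2 to 239 CPM in high glucose, and ACADVL was lower with a log2 fold change of −0.13 (adjusted p = 0.0302). Without HG_1 and control replicate 2 together it was −0.14 (adjusted p = 0.0345). Leaving out only 1 of the pair moved it to −0.07 without control replicate 2 (adjusted p = 0.608) and −0.19 without HG_1 (adjusted p = 0.0658). The GC content of its longest coding transcript is 58.6%.

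ACADM (ENSG00000117054, chr1:75724347-75787575, plus strand), the medium-chain enzyme whose deficiency is the commonest inherited disorder of fatty acid oxidation, gave 63, 61.2, 65.7, 60 and 62.5 CPM in control and 60.1, 68.7, 68.9, 70.1 and 63.6 CPM in high glucose. HG_2, HG_3 and HG_4 lay above all controls, and HG_1 and HG_5 fell within their range. The log2 fold change was 0.09 ± 0.0535 (SE, edgeR adjusted p = 0.341), and 0.03 with the GC and length trend removed (adjusted p = 0.619).

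ACADS (ENSG00000122971, chr12:120725735-120740008, plus strand) handles short chains. Controls measured 7.82, 14.2, 7.98, 9.35 and 9.39 CPM and high glucose libraries 16.3, 11.9, 12.5, 11.1 and 11 CPM. Control replicate 2 was higher than 4 of the 5 high glucose libraries, and the other 4 controls were below all of them. The log2 fold change of 0.36 ± 0.174 (SE) did not pass in edgeR (adjusted p = 0.199). At 64.6%, ACADS has the highest GC content of the 10 genes, and with the GC and length trend removed together the groups no longer overlapped, with 8.36 to 11.6 CPM in control against 12.3 to 13.3 CPM in high glucose (log2 fold change 0.39, adjusted p = 0.00545). Without control replicate 2 the log2 fold change was 0.54 (adjusted p = 0.0196), and without HG_1 and control replicate 2 together it was 0.43 (adjusted p = 0.00864). Without HG_1 alone it was 0.26 and did not pass (adjusted p = 0.323).

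Ratios between the 3 dehydrogenases did not pass when all libraries were used. The log2 ratio of ACADVL to ACADM in normalized CPM was 2.00 ± 0.143 in control and 1.80 ± 0.225 in high glucose (SD, n = 5), a difference of −0.21 (exact permutation test, two-sided, p = 0.135, 0.413 adjusted over the 4 ratios examined). HG_1 stood at 2.19 and the other 4 high glucose libraries at 1.64 to 1.74, below the lowest control at 1.88. Leaving out HG_1, the library seen to stand apart, gave a difference of −0.31 (exact permutation test, adjusted p = 0.0317). The groups were then fully separated, so the unadjusted p was the lowest that this test can give. For ACADM to ACADS the ratio was 2.72 ± 0.374 in control and 2.42 ± 0.307 in high glucose, with a difference of −0.30 (exact permutation test, p = 0.206, adjusted p = 0.413). It was −0.17 without HG_1 (exact permutation test, adjusted p = 0.54) and −0.45 without control replicate 2 (adjusted p = 0.0635).

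**Figure D2:**
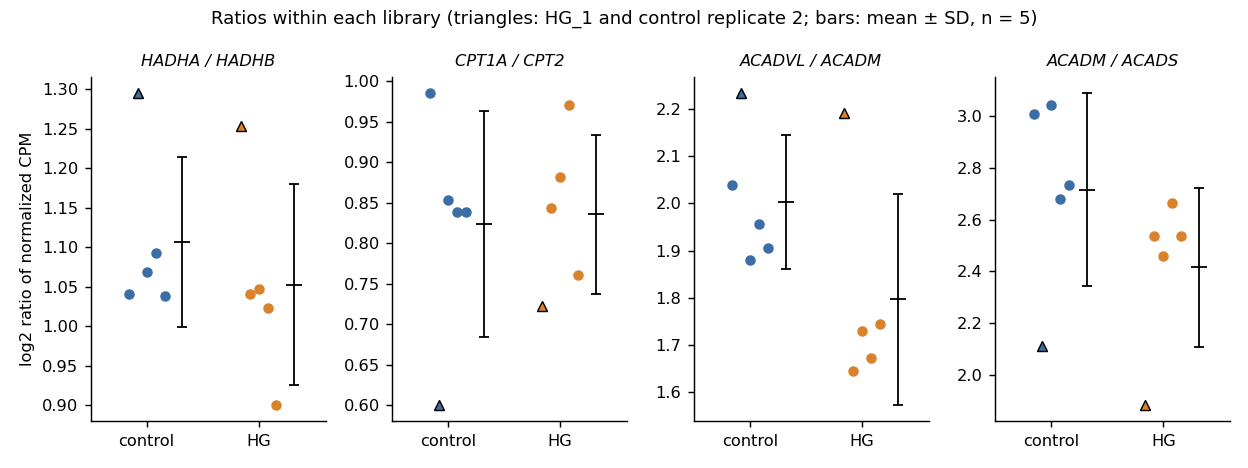
Log2 ratios of normalized CPM within each library for 4 gene pairs (y axes do not start at 0), in the 5 control (blue) and 5 high glucose (orange) libraries with mean ± SD. Triangles are HG_1 and control replicate 2, which lie at the edge of their group for ACADVL to ACADM (2.19 and 2.23) and for ACADM to ACADS (1.88 and 2.11).

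HADHA and HADHB encode the α and β subunits of the mitochondrial trifunctional protein, which carries out the last 3 steps of the cycle on long chains. The genes lie head to head on chromosome 2, HADHA (ENSG00000084754) at chr2:26190635-26244726 on the minus strand and HADHB (ENSG00000138029) at chr2:26243170-26290468 on the plus strand, and the RefSeq table gives transcript starts 306 bases apart. Because the starts of both subunits face this region, the stretch between their principal first exons (HADHA-201 and HADHB-201 of GENCODE) is shown, and beside it the stretch upstream of CPT1A, another of the called genes. Sequences are from RefSeq (GRCh38.p14), 5′ to 3′ on the strand named, and capitals mark the GC box GGGCGG or its reverse complement.
HADHA and HADHB, chr2:26244727-26244894, plus strand: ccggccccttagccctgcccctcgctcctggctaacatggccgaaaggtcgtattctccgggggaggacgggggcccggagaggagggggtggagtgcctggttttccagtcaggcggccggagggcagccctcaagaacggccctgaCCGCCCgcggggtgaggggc
CPT1A, chr11:68844411-68844527, minus strand: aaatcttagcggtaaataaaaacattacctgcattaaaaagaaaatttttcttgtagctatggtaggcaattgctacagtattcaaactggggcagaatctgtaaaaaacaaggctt
The shared stretch of HADHA and HADHB holds 1 GC box in 168 bases with a GC content of 71.4%, and the first exon of a longer annotated HADHB transcript reaches into it. The CPT1A stretch of 117 bases, which lies upstream of the whole annotated gene, has a GC content of 32.5% and no GC box. It does not reach the RefSeq start of CPT1A at position 68844277. The full 250 bases before that start have a GC content of 44.4% and also no GC box. For PPARGC1A the table gives a start inside the gene, at position 23881101, with a GC content of 44% in the 250 bases before it, and another far upstream of the annotated gene, at position 24472905, with 70.8%, and only the window of the latter holds a GC box, past the start. Which start these cells used was not measured. The table held 12 promoters of 9 of the 10 genes, each a window of 300 bases around a start. A GC box on either strand was in 9 of the 12, and in 45% of 35116 promoters. None of the 12 held TCAAGGTCA (oestrogen-related receptor element, in 0.353% of all promoters), the PPAR direct repeat (AGGTCA repeated after any 1 base, 0.0228%) or TGACGTCA (cAMP response element, 1.85%), searched on both strands.

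HADHB, whose subunit holds the thiolase, gave 108, 106, 113, 109 and 108 CPM in control and 129.7, 126, 127, 127 and 136 CPM in high glucose. The groups were separated by a gap wider than the spread of the controls, with means of 109 ± 2.84 and 129 ± 4.21 CPM (SD, n = 5). Its log2 fold change was 0.25 ± 0.0387 (SE, edgeR adjusted p = 0.00171), the most precise of the 10, and 0.20 to 0.26 under the alternatives, all of which called it.

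HADHA, which carries the hydratase and the long-chain hydroxyacyl-CoA dehydrogenase, gave 222, 259, 238, 232 and 222 CPM in control and 309, 259.9, 263, 257 and 254 CPM in high glucose. All 5 high glucose libraries exceeded the 4 controls other than replicate 2, which lay at 259 CPM. With a log2 fold change of 0.20 ± 0.0653 (SE) HADHA did not pass in edgeR (adjusted p = 0.0691). It passed with an adjusted p of 0.023 after removal of the GC and length trend, 0.0263 without control replicate 2 and 0.00249 without HG_1 and control replicate 2 together. Of the fits with 1 library left out, only that without control replicate 2 passed. Without HG_1 alone the log2 fold change was 0.14 (adjusted p = 0.064), and without control replicate 1 it was 0.18 (adjusted p = 0.1503).

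A called subunit beside one that was not called is no sign that they differ. The log2 ratio of HADHA to HADHB in normalized CPM was 1.11 ± 0.108 in control and 1.05 ± 0.127 in high glucose (SD, n = 5), and the difference of −0.05 did not pass (exact permutation test, two-sided, p = 0.421, adjusted p = 0.561). Leaving out 1 library moved the difference from −0.10 without HG_1 to −0.02 without HG_5 and −0.0073 without control replicate 2, and it did not pass in any of these. Control replicate 2 at 1.30 and HG_1 at 1.25 had the highest ratio of their groups.

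ETFDH (ENSG00000171503, chr4:158672125-158709623, plus strand) passes the electrons of all acyl-CoA dehydrogenases on to ubiquinone in the respiratory chain. Controls gave 25.7, 23.8, 23.7, 25.8 and 26 CPM and high glucose libraries 25.7, 24.8, 28, 26.8 and 30.8 CPM. Only HG_3, HG_4 and HG_5 were above all controls. Its log2 fold change of 0.12 ± 0.0672 (SE) did not pass (edgeR adjusted p = 0.265), nor under any alternative, and it was 0.08 without HG_5 (adjusted p = 0.495). Genes on the other strand share 13.3% of the 100-base windows of its transcript.

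**Figure D3:**
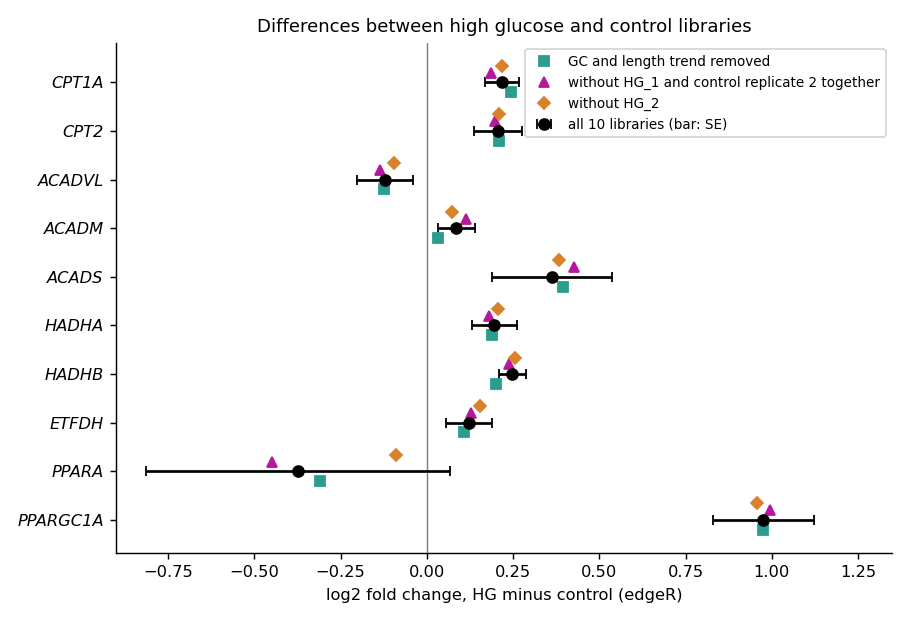
Log2 fold change of each gene, high glucose minus control, from edgeR with all 10 libraries (black, bar: SE), with the GC and length trend removed, without HG_1 and control replicate 2 together, and without HG_2. The sign holds for each gene in all 4 fits, PPARGC1A stands at 0.98, and PPARA moves from −0.37 to −0.09 without HG_2.

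PPARGC1A and PPARA are the 2 regulators. PPARGC1A (ENSG00000109819, chr4:23755041-23904089, minus strand) encodes PGC-1α, a coactivator of nuclear receptors that drives mitochondrial biogenesis and oxidative genes. Control libraries gave 17, 21.2, 31.7, 24.1 and 26.1 CPM and high glucose libraries 38.9, 49.9, 50.1, 50.1 and 47.4 CPM. Controls varied more among themselves, with a coefficient of variation of 22.8% against 10.2% in high glucose, yet the lowest high glucose library exceeded the highest control. The mean was 24 ± 5.47 CPM in control and 47.3 ± 4.82 CPM in high glucose (SD, n = 5), with a log2 fold change of 0.98 ± 0.146 (SE, edgeR adjusted p = 0.00142). This was higher than in 98.7% of tested rows. Leaving out any 1 library gave 0.88 to 1.1, and the deposited FPKM did not overlap either, with 2.55 to 4.9 in control and 5.67 to 8.15 in high glucose. The lowest value under any alternative was 0.85, and all alternatives called the gene.

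PPARA (ENSG00000186951, chr22:46150521-46243756, plus strand) encodes the fatty acid-activated nuclear receptor under which many of these enzymes stand in liver and heart. It gave 21.4, 16, 22.7, 20.9 and 21.8 CPM in control and 15.7, 2.11, 18.9, 22.2 and 20.5 CPM in high glucose. One library set the result, HG_2, in which 87 reads were counted where HG_1 and HG_3 to HG_5 had 606 to 848. The log2 fold change was −0.37 ± 0.441 (SE, edgeR adjusted p = 0.648) with HG_2 and −0.09 (adjusted p = 0.725) without it.

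The deposited FPKM of PPARA in HG_2 did not follow the count. It was 1.67, inside the 1.46 to 2.16 of HG_1 and HG_3 to HG_5 and the 1.43 to 2.18 of the controls. Relative to its FPKM the count was 7.92-fold below the median of the libraries, the largest such deviation among 10619 rows with an FPKM over 1 in every library and over 300 counts in at least 1. In the other libraries PPARA deviated by at most 0.107 log2 units, and the other 9 genes by at most 0.166 in any library. From the FPKM, PPARA differed by −0.06 on the log2(FPKM + 1) scale (limma, adjusted p = 0.752). Why the tables differ there was not tested.

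**Figure D4:**
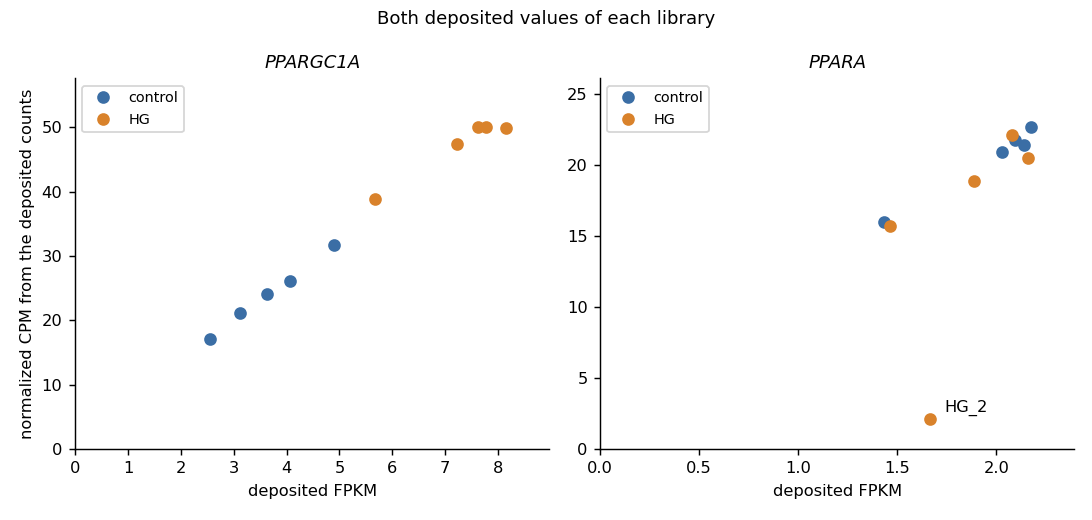
Normalized CPM from the deposited counts (y axis) against deposited FPKM (x axis) of PPARGC1A (left) and PPARA (right), with 1 point per library, control in blue and high glucose in orange. The points of PPARGC1A rise together from 17 to 50.1 CPM, whereas for PPARA the library HG_2 lies at 2.11 CPM with an FPKM of 1.67, far under the other 9.

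Around these 10 genes, 96 further genes were taken from lists by role, 86 of the pathway and its control and 10 PPAR targets outside it. All 96 had a row, 86 of the 96 were tested, and 12 were higher and 5 lower in high glucose, which is 19.8% against the 15.4% of all rows, with a median log2 fold change of 0.10. Without the PPAR targets, 14 of 82 tested genes were called, or 17.1%. Genes named below without belonging to a list of fixed names, and with an absolute log2 fold change under 0.5, were chosen after their values were seen.

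**Figure D5:**
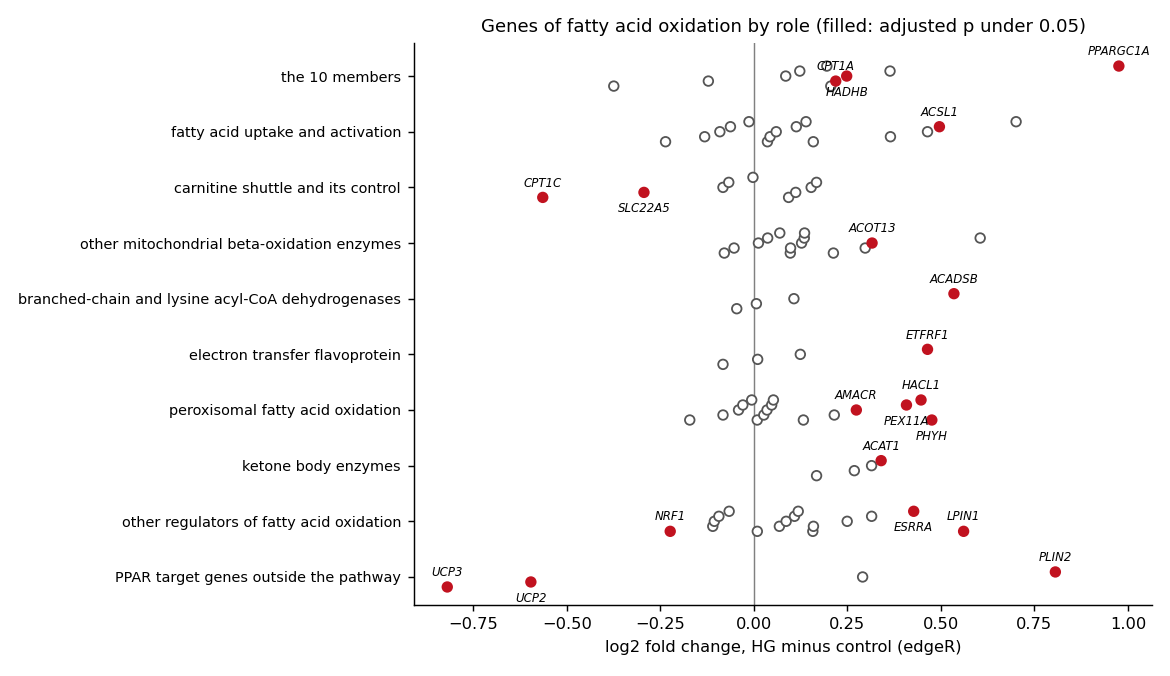
Log2 fold change, high glucose minus control, of the 10 genes and of 86 tested genes in 9 lists by role (y axis), 1 point per gene. Filled points passed an adjusted p of 0.05 in edgeR: 12 genes of the lists to the right of 0, among them PLIN2 at 0.81, and 5 to the left, among them UCP3 at −0.82.

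Upstream of the carnitine shuttle, 1 of 15 tested genes for fatty acid uptake and activation rose (6.67% called, under the 15.4% of all rows). ACSL1, which activates long-chain fatty acids to acyl-CoA, went from 76.1 ± 10 to 107 ± 8.05 CPM (SD, n = 5; log2 fold change 0.496, edgeR adjusted p = 0.00454). In the shuttle itself and its control, 2 of 9 tested genes fell (22.2% called). CPT1C, the brain-type carnitine palmitoyltransferase with little catalytic activity, went from 30.9 ± 3.38 to 20.9 ± 3.46 CPM (log2 fold change −0.56, adjusted p = 0.00805). SLC22A5, the carnitine importer of the plasma membrane, went from 32.5 ± 0.564 to 26.5 ± 0.851 CPM, with no overlap of the groups (−0.29, adjusted p = 0.00149). The muscle form CPT1B (log2 fold change 0.00, adjusted p = 0.996) and SLC25A20, the carnitine-acylcarnitine exchanger (−0.08, adjusted p = 0.478), did not pass.

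Among 14 other enzymes of mitochondrial β-oxidation, 12 had a log2 fold change above 0, but only the thioesterase gene ACOT13 passed (0.32, edgeR adjusted p = 0.0264), which is 7.14% called. Values above 0 were found in 50.2% of all tested rows, in 60 of the 86 tested list genes and in 4 of 9 of the carnitine shuttle list. The hydratase ECHS1 (0.04, adjusted p = 0.783), the dehydrogenase HADH (0.14, adjusted p = 0.16) and the thiolase ACAA2 (0.01, adjusted p = 0.922), which serve the shorter chains, did not pass. Neither did ACAD9 (−0.08, adjusted p = 0.463) or the scarce ACADL, with 37 to 119 counts (0.61, adjusted p = 0.096). In the electron transfer flavoprotein list, the subunits ETFA (0.12, adjusted p = 0.186) and ETFB (0.01, adjusted p = 0.967) did not pass, while ETFRF1, a regulator of that flavoprotein, rose from 14.5 ± 0.955 to 20 ± 0.805 CPM (0.46, adjusted p = 0.000941). Of 4 dehydrogenases of branched-chain amino acids and lysine, ACADSB, which acts on short branched acyl-CoA, rose from 17.9 ± 1.9 to 26 ± 2.79 CPM (0.53, adjusted p = 0.00359).

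In the peroxisome, 4 of 16 tested genes rose (25% called). PHYH (log2 fold change 0.48, edgeR adjusted p = 0.00501) and HACL1 (0.45, adjusted p = 0.00598) perform α-oxidation of phytanic acid, AMACR (0.27, adjusted p = 0.0395) racemizes branched-chain acyl-CoA, and PEX11A (0.41, adjusted p = 0.0402) acts in peroxisome division. For ketone bodies, 1 of 4 tested genes rose (25% called), the mitochondrial thiolase ACAT1, from 103 ± 5.14 to 130 ± 5.27 CPM (0.34, adjusted p = 0.00097).

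Of 16 other regulators, ESRRA and LPIN1 rose and NRF1 fell (18.8% called). ESRRA, the oestrogen-related receptor through which PGC-1α acts on many mitochondrial genes, went from 57.4 ± 6.14 to 77.2 ± 11 CPM with no overlap (0.43, edgeR adjusted p = 0.0174). LPIN1, a phosphatidate phosphatase that also works as a coactivator of PPARA, went from 172 ± 23.9 to 254 ± 34.7 CPM (0.56, adjusted p = 0.00884), and NRF1, a nuclear respiratory factor, from 14.4 ± 0.943 to 12.3 ± 0.485 CPM (−0.22, adjusted p = 0.0457). PPARD (−0.09, adjusted p = 0.24), PPARG (0.16, adjusted p = 0.492) and the related coactivator PPARGC1B (0.31, adjusted p = 0.25) did not pass.

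Genes known as PPAR targets outside the pathway split in direction. PLIN2, which coats lipid droplets, rose from 101 ± 9.47 to 177 ± 9.95 CPM with no overlap (log2 fold change 0.81, edgeR adjusted p = 8.85e-05). UCP2 (−0.60, adjusted p = 0.00137) and UCP3 (−0.82, adjusted p = 0.023), carriers of the inner mitochondrial membrane, fell. PDK4, the kinase that shuts pyruvate dehydrogenase when fat is burnt, did not pass (0.29, adjusted p = 0.373), and ANGPTL4 had 0 to 10 counts and was not tested. Only 4 of the 10 genes of this list passed the filter on low counts, of which 3 were called.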

How the data were processed

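RNA of 10 ARPE-19 libraries, made from total RNA with the VAHTS Universal V6 kit, was sequenced. The authors deposited a table of raw read counts, whole numbers per gene without normalization, and a table of FPKM values that the authors scaled by transcript length and library size. Per the submitters' processing notes, fastp 0.20.1, HISAT2 2.2.1 and GRCh38 were used, and the counting program, its annotation and its strand setting are not given in the sources used here. Reads of antisense genes therefore cannot be told apart from those of CPT2 and ETFDH, whose longest coding transcripts share 100-base windows with transcripts of the other strand. Those of the other 8 genes share none, though some gene spans overlap.

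Groups came from the labels. The high glucose libraries are lettered there and numbered in the tables, so they enter by group. From the counts, edgeR 4.0.16 in R 4.3.3 was run on all 22626 rows: default filter on low counts (14936 rows kept), TMM normalization, quasi-likelihood test of high glucose against control, Benjamini-Hochberg adjustment over all rows kept. CPM values are normalized by TMM. Standard errors were taken from the log2 fold change and its F statistic. Ratios between genes were tested with a two-sided exact permutation test over 252 arrangements of all 10 libraries, which can give no p below 0.00794. There are fewer arrangements when 1 library is left out. Positions and GC content, from the longest protein-coding transcript, are from GENCODE 29. Genes of the pathway lists are named where fixed by name, or where the adjusted p was under 0.05 and the absolute log2 fold change at least 0.5, and any other was picked with its values in view. Some list genes enter the counts per list but are not reported by name. The 10 genes and all lists were chosen with earlier results of these data known.

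Alternatives were DESeq2 1.42.0, scaling by library size alone or by RLE, a minimum of 10 counts in each library or no filter at all, the likelihood ratio test, limma 3.58.1 on log2 FPKM with a pseudocount of 1 or 0.1 and, with 1, on rows whose mean FPKM was at least 1, 1 surrogate variable from sva 3.50.0, removal of each library's trend with GC content and length (lowess, span 0.3), counts without loci named MSTRG, each library left out in turn, and HG_1 and control replicate 2 left out together. The edgeR step was tested on simulated counts for 14744 genes, where it called 43 of 98 genes changed by 0.5 and 69 of 98 changed by 1 on the log2 scale, with 1 false call. These counts held a far smaller share of changed genes than was called here, no GC trend and no change smaller than 0.5. The rates therefore hold for that setting only. Limits from counts cover counting error only.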

Additional observations from a re-analysis of the deposited data

Results flagged for a closer look

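Among 28 groups of 5 values (the CPM of the 10 genes and the 4 ratios, in each condition), 8 had a library whose gap to the others passed Dixon's critical value of 0.71, where chance gives about 1.4. All 8 were in HG_1 or control replicate 2, the libraries with the GC trend. HG_1 stood apart for ACADVL with 274 CPM (HG_2 to HG_5: 213 to 228 CPM), for HADHA with 309 against 254 to 263 CPM, for PPARGC1A with 38.9 against 47.4 to 50.1 CPM, and for the log2 ratios of ACADVL to ACADM (2.19 against 1.64 to 1.74) and of ACADM to ACADS (1.88 against 2.46 to 2.66). Control replicate 2 stood apart for ACADS with 14.2 CPM against 7.82 to 9.39 in the other controls, for PPARA with 16 against 20.9 to 22.7 CPM, and for the log2 ratio of HADHA to HADHB (1.30 against 1.04 to 1.09). The part of the GC trend in these 8 values was not tested one by one. With the trends of GC content and length removed together across all genes, ACADVL in HG_1 was 232 CPM beside 230.2 to 239 CPM in the others and PPARGC1A 49 beside 45.6 to 50.4 CPM, while HADHA in HG_1 remained at 309.9 against 259.9 to 266 CPM.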

How the results depend on the processing

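CPT1A, HADHB and PPARGC1A were called under all 23 alternatives, and no log2 fold change of the 10 genes changed sign. In place of 3 of the 10 genes, 5 were called with DESeq2 (3125 of all rows called), library size alone (2301) and the 3 limma fits on FPKM (1896 to 2036; CPT2 and HADHA added), 6 with 1 surrogate variable (ACADVL added too), and 7 with the GC and length trend removed or without HG_1 and control replicate 2 together (ACADS added as well). Leaving out 1 library gave 3 to 6, the 6 without control replicate 2, with 1648 to 2993 of all rows called. Of all rows, 4008 were called with 1 surrogate variable, 3965 with the trend removed and 4035 without both libraries, against 2303. Of the pathway lists, 12 to 25 genes were called, against 17, the 12 without control replicate 1 (1674 of all rows) and the 25 with the trend removed. The CPT1A to CPT2 difference ran from −0.0436 to 0.0528 without 1 library and was below 0 without control replicate 2 (−0.0436) and without HG_4 (−0.0214). That of ACADVL to ACADM ran from −0.31 to −0.15. The cause was not tested. No paired analysis was possible because the labels give numbers to the control and letters to the high glucose libraries. The 10 genes had at least 258 counts in every library except PPARA in HG_2 with 87, and counting error was not separated from the spread between libraries.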
